A study of Mus musculus with 28 samples.

Results

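The 32 genes described here encode proteins that store, dock, release and recover synaptic vesicles at the presynaptic terminal. They were chosen by name: a gene is a member if its Ensembl ID in the hippocampal count tables maps to a listed symbol, and this rule uses no measured value. The list of symbols was, however, chosen with earlier results of these data known. All 32 were found among 55487 gene IDs, and all 32 passed the filter on low counts, as did 21376 gene IDs of the Ripk1 cohort and 21274 of the Zbp1 cohort. By role they are 6 synaptotagmins, 9 proteins of the vesicle membrane and vesicle pools, 7 SNARE proteins and their regulators, 6 active zone proteins, 2 proteins of endocytosis and 2 neurexins.

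Polyadenylated RNA of mouse hippocampus was sequenced from animals 9 months of age, killed after behavioural testing, in 2 cohorts. The Ripk1 cohort holds WT, 5xFAD, Ripk1D138N/D138N and Ripk1D138N/D138N 5xFAD mice, and the Zbp1 cohort holds WT, 5xFAD, Zbp1-/- and Zbp1-/- 5xFAD mice. Each mutant line had WT animals of its own ancestry, so comparisons were made within a cohort, and each genotype had 3 libraries, 24 in all. The 5xFAD line carries mutant human transgenes driven by the neuronal Thy1 promoter and is used as a model of Alzheimer's disease. Ripk1 D138N (here D138N) removes the kinase activity of RIPK1 in every cell, and Zbp1-/- (here Zbp1 KO) lacks ZBP1, a sensor of Z-form nucleic acids that can act through RIPK kinases. A further 4 libraries hold RNA that came down with a ZBP1 antibody and the matching input from WT and 5xFAD, 1 library each.

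Transmitter release starts when an action potential lets calcium into the terminal, where synaptotagmins on the vesicle bind it and drive fusion by the SNARE complex of VAMP, syntaxin and SNAP25. Vesicles are held ready at the active zone, a protein meshwork built by bassoon, piccolo and RIM and primed by Munc13. After fusion the membrane is taken back by endocytosis, in which dynamin cuts the new vesicle free. Loss of presynaptic terminals is a known feature of Alzheimer's disease and of mice that form amyloid plaques.

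Promoter sequences are shown as a description, and a link between them and the changes in level was not tested. The 6 members shown were chosen from those named in the results and include a paralog that did not pass. They are Syt1 and Syt2, both lower in 5xFAD of the Ripk1 cohort, Sv2a and Bsn, also lower there, and the pair Cplx1 and Cplx2, of which Cplx1 alone was called lower. Each line gives the 250 bases upstream of a RefSeq transcription start on GRCm38.p6, 5′ to 3′ on the gene's own strand. Capitals mark a GC box, the letters GGGCGG on either strand (CCGCCC where it lies on the other strand), which is a binding site of Sp1-family factors. Syt2 has 2 annotated starts, and both are shown, while Syt1 is shown for the upstream of its 2 starts.
Syt1, chr10:109010976-109011225 (- strand): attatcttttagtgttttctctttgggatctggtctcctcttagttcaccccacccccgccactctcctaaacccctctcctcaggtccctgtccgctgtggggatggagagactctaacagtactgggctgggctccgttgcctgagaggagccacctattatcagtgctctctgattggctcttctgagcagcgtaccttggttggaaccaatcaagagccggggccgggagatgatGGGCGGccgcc
Syt2, upstream start, chr1:134646362-134646611 (+ strand): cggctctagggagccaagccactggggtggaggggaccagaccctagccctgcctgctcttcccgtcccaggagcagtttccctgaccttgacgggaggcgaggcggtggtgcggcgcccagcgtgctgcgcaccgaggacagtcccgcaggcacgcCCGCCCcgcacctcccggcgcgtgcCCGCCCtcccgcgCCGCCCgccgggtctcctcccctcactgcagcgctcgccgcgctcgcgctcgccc
Syt2, downstream start, chr1:134709050-134709299 (+ strand): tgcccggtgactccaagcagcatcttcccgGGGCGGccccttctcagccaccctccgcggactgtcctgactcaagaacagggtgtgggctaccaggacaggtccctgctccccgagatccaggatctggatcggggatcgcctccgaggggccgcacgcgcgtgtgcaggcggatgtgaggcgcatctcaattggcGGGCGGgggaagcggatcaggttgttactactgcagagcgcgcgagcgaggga
Sv2a, chr3:96180977-96181226 (+ strand): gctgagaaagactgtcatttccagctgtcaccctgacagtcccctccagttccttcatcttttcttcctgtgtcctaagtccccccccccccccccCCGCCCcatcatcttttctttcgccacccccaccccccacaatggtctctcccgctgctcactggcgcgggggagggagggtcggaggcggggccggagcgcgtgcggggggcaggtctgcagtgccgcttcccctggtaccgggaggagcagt
Bsn, chr9:108190384-108190633 (- strand): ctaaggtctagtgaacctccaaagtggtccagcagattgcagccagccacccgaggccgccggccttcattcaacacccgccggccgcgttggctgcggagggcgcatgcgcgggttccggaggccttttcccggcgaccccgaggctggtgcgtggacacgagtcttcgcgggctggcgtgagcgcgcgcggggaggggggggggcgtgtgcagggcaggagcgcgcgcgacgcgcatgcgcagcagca
Cplx1, chr5:108550028-108550277 (- strand): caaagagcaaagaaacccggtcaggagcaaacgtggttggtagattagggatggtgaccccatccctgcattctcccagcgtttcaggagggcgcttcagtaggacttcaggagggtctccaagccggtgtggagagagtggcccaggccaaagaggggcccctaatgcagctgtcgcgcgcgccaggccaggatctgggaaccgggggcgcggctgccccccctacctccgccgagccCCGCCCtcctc
Cplx2, chr13:54302306-54302555 (+ strand): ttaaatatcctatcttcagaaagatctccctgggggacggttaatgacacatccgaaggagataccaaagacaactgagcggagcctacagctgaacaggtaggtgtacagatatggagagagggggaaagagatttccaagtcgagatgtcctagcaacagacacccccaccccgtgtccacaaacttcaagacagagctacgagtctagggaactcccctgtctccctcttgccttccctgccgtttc

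Windows on chromosome 18 were left out of the search, for members and for all genes alike. The remaining entries covered 24 of the 32 members, with 33 windows of this kind. A GC box stood in 18 of the 33 windows, against 32.7% of all 32851 RefSeq windows searched. Counted by gene, where any window is enough, it stood in 17 of the 24 members, and no share by gene was computed over all genes. Median GC content was 60.0% in the member windows and 52.4% in all windows. Among members called lower in 5xFAD of the Ripk1 cohort, 6 of 10 had a GC box, and among the other members 11 of 14 did. Searched on both strands, the cyclic AMP element TGACGTCA was found in 1 member window (Syn1, all windows 1.55%). The TATA box TATAAA was found in 2 windows, both of Sv2b (all windows 12.4%). The left part of the RE1 element, TCAGCACC, was found in Syn1 alone (all windows 1.32%), and its right part, GGACAGCG, in no member window (all windows 0.992%). None of the motifs contains another, and a match describes the letters only.

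Library totals were 16.6 to 44.8 M counts for the Ripk1 cohort and 8.4 to 34.6 M for the Zbp1 cohort, where the next lowest had 27.1 M. Over all libraries a member was covered by 157 (Syn3) to 83585 (Snap25) counts in libraries of the Ripk1 cohort and by 107 to 66305 counts in those of the other. Levels are given as CPM, counts scaled to library size, for libraries 1, 2 and 3 in turn, and levels of different genes were not compared because transcript lengths were not used. All 15 pan-neuronal markers and all 10 markers of hippocampal pyramidal and granule cells were detected in every group. Thy1, which shares its promoter with the transgenes, stood at 542 to 609 CPM in WT and 2295 to 2739.6 CPM in 5xFAD of the Ripk1 cohort. In D138N 5xFAD it stood at 1612 to 2251 CPM, below every 5xFAD library of that cohort. In the Zbp1 cohort it stood at 1462 to 2159 CPM in 5xFAD and 1468 to 1583 CPM in Zbp1 KO 5xFAD. Zbp1 stood at 0.298 to 0.351 CPM in Zbp1 KO 5xFAD and 1.79 to 3.58 CPM in 5xFAD of the Zbp1 cohort. Without the transgenes it stood at 0 to 0.383 CPM in WT and 0 to 0.319 CPM in Zbp1 KO, too low to check the knockout there. A point mutation such as D138N cannot be checked in gene counts. Libraries WT 2 and 5xFAD 2 of the Zbp1 cohort stood apart, with Malat1, a nuclear RNA, at 994 and 791 CPM where no other hippocampal library was below 1938 CPM. In the Ripk1 cohort 5xFAD 1 stood apart by Fos, an activity-induced gene, at 521 CPM. Choroid plexus markers varied from 49 to 4787 CPM in sum across libraries, within genotypes as well as between them.

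In the Ripk1 cohort 13 of the 32 members were lower in 5xFAD than in WT and 0 were higher (edgeR quasi-likelihood test, Benjamini-Hochberg adjusted p under 0.05 over all genes). At an unadjusted p under 0.05 the counts were 17 lower (14.7% of genes) and 0 higher, and DESeq2 called 16 lower (11.8% of genes) and 0 higher. Over all genes tested 8.02% were called lower. The estimate was negative for 28 members, with a median log2 fold change of -0.19 against 0.02 over all genes. Of the 32, 16 had 5xFAD libraries that all lay below all WT libraries, which held for 17.1% of genes tested. In bulk tissue, fewer cells of a type and less RNA per cell cannot be told apart. The summed CPM of the 15 pan-neuronal markers was 9321 to 9966 in WT and 7640 to 8272 in 5xFAD. Of these 15 markers 2 were called lower, Map2 and Map1b, 8 estimates were negative and 7 positive, and the median was -0.09. The 12 microglial markers summed to 343 to 457 CPM in WT and 1594 to 1706 CPM in 5xFAD, with all 12 called higher. The 8 oligodendrocyte markers summed to 5070 to 5984 CPM and 6555 to 8118 CPM, with 4 called higher. The 8 astrocyte markers summed to 6382 to 8367 CPM and 7515 to 7820 CPM, with 5 called higher and 1 lower. The part of cell composition in the members' decline was not tested.

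**Figure D1:**
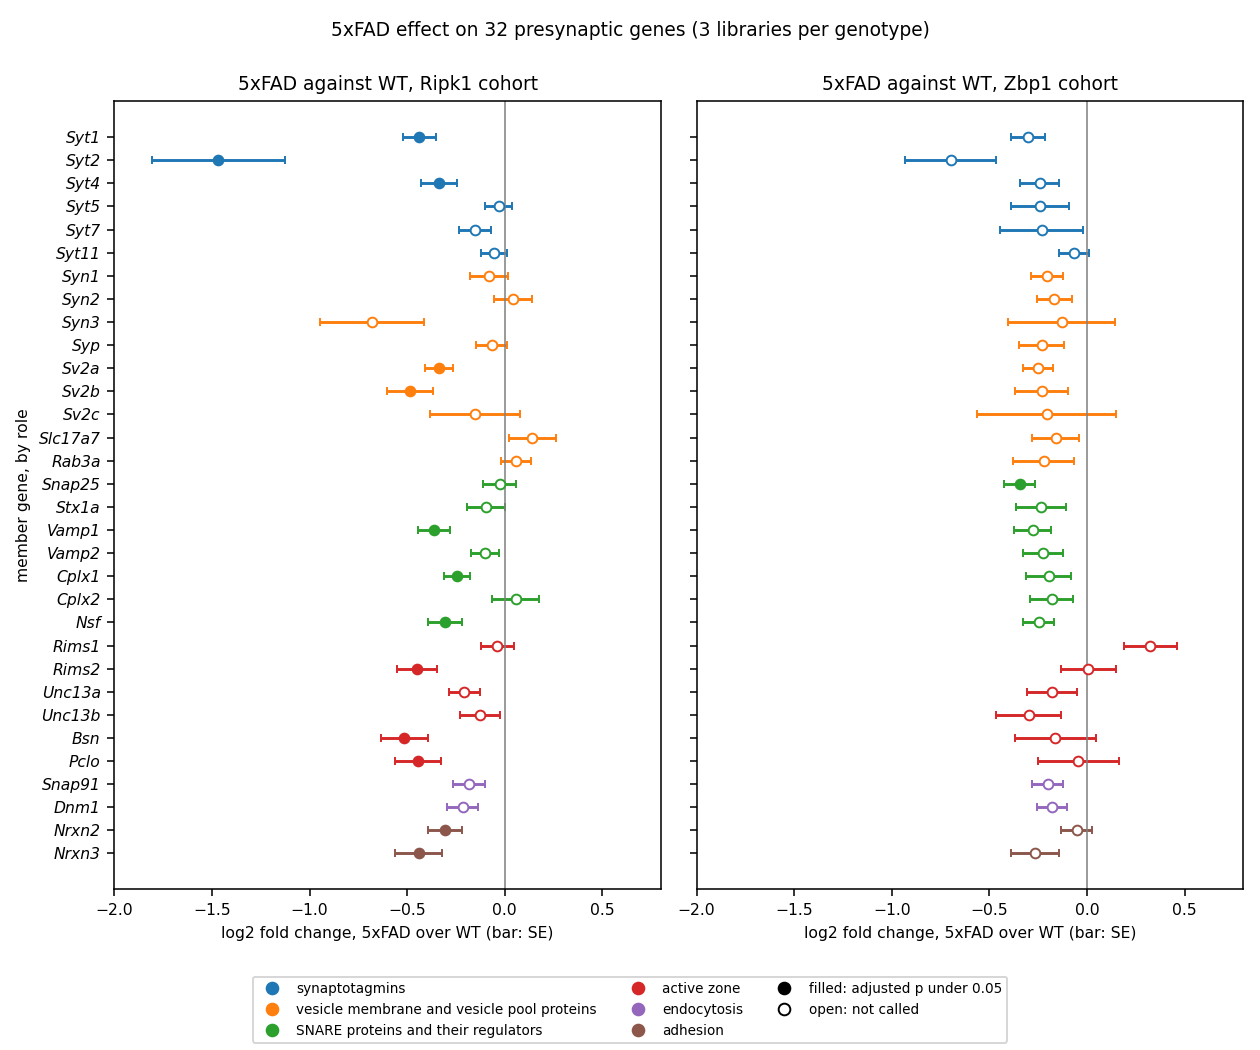
Log2 fold change of each of the 32 members in 5xFAD against WT, by role, for the Ripk1 and the Zbp1 cohort (3 against 3 libraries each, bars are ± 1 SE, filled points passed an adjusted p under 0.05). Most points lie below 0 in both cohorts, with 13 filled in the Ripk1 cohort and 1, Snap25, in the Zbp1 cohort.

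Among the synaptotagmins 3 of 6 were called lower, Syt1, Syt2 and Syt4. Syt1 encodes the main calcium sensor of fast release. It stood at 1706, 1654 and 1671 CPM in WT and at 1163, 1192 and 1358 CPM in 5xFAD, a fall of 26.2% (log2 fold change -0.44 ± 0.09 SE, adjusted p = 0.00434). All 3 5xFAD libraries lay below all 3 WT libraries, with 5xFAD 3 the nearest to WT. Syt2, the fast sensor of certain interneurons and of brainstem and thalamic terminals, fell the most of all members, by 63.8% (log2 fold change -1.47 ± 0.34, adjusted p = 0.0107). Its levels were 38.4, 48.0 and 44.7 CPM in WT and 15.6, 13.8 and 18.0 CPM in 5xFAD, so the highest 5xFAD library was below the lowest WT library. Syt4, an isoform found on dense-core and other vesicles, stood at 150.0, 165 and 137 CPM in WT and 115, 109 and 133 CPM in 5xFAD (log2 fold change -0.34 ± 0.09, adjusted p = 0.0247). The gap between its groups was narrow, between WT 3 and 5xFAD 3. The other 3 gave estimates of -0.15 for Syt7, a slower high-affinity sensor, -0.06 for Syt11 and -0.03 for Syt5, none of which passed the test.

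Syt2 moved beside some markers of neighbouring tissue and of interneurons, but not all. Slc17a6, the vesicular glutamate transporter of thalamic and other subcortical projection neurons, stood at 22.6, 39.3 and 26.3 CPM in WT and 5.25, 8.14 and 9.54 CPM in 5xFAD. The 7 neocortex and subiculum markers that could be tested summed to 319 to 342 CPM in WT and 227 to 250 CPM in 5xFAD, with 2 called lower and all 7 estimates negative. The 9 inhibitory interneuron markers summed to 756 to 1046 CPM and 608 to 748 CPM, with 2 called lower, Gad1 and Gad2. Of their estimates 7 were negative and 2 positive. The 8 thalamus and habenula markers summed to 125 to 179 CPM and 114 to 133 CPM, with overlap, and 5 estimates were negative and 3 positive. The 1 called lower was Slc17a6 itself, which that list shares with the presynaptic genes. Pvalb, the marker of the interneuron class known for Syt2, stood at 17.6, 20.3 and 20.3 CPM in WT and 13.3, 15.7 and 18.3 CPM in 5xFAD, with 5xFAD 3 above WT 1. The part of these cells and regions in the fall of Syt2 was not tested.

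Of the 9 proteins of the vesicle membrane and vesicle pools, 2 were called lower, Sv2a and Sv2b, and both are transporter-like glycoproteins of the vesicle membrane. Sv2a, the binding site of the antiepileptic drug levetiracetam, stood at 473, 495 and 455 CPM in WT and 360.1, 358 and 408 CPM in 5xFAD. It fell by 20.8% (log2 fold change -0.34 ± 0.07, adjusted p = 0.00795), with no overlap. Sv2b stood at 541, 497 and 468 CPM and 385, 306 and 386 CPM (log2 fold change -0.48 ± 0.12, adjusted p = 0.0143), and 5xFAD 2 was its lowest library. The paralog Sv2c gave -0.15 ± 0.23 and did not pass. The rest ranged from -0.68 for Syn3 (adjusted p = 0.101), the synapsin with the lowest counts of any member, to 0.14 for Slc17a7, the main vesicular glutamate transporter of hippocampal pyramidal and granule cells. Syn1 and Syn2, which tether vesicles to one another, gave -0.08 and 0.04. Syp, a major protein of the vesicle membrane that is widely used as a synapse marker, gave -0.07 ± 0.08, at 604, 608 and 622 CPM in WT and 569.9, 564 and 618 CPM in 5xFAD. Those groups overlapped. Rab3a, the GTPase that links vesicles to RIM, gave 0.06.

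Of the 7 SNARE proteins and regulators 3 were called lower: Vamp1, Cplx1 and Nsf. Vamp1, a vesicular SNARE, stood at 133, 139.6 and 151 CPM in WT and 117, 105 and 107 CPM in 5xFAD (log2 fold change -0.36 ± 0.08, adjusted p = 0.00996), with every 5xFAD library below every WT library. Its paralog Vamp2, the main vesicular SNARE of the forebrain, gave -0.10 ± 0.07 (adjusted p = 0.39), also without overlap. Cplx1, a complexin that clamps and activates the SNARE complex, stood at 437, 469 and 454 CPM and 380.2, 386 and 382 CPM (log2 fold change -0.24 ± 0.07, adjusted p = 0.0251). Its paralog Cplx2 gave 0.06 ± 0.12 and did not pass. Nsf, the ATPase that takes used SNARE complexes apart, stood at 1185, 1091 and 1198 CPM and 955, 876 and 980.0 CPM (log2 fold change -0.31 ± 0.09, adjusted p = 0.0272), with a group gap that lay between WT 2 and 5xFAD 3. The SNAREs of the target membrane, Snap25 and Stx1a, gave -0.03 ± 0.08 and -0.09 ± 0.10 and did not pass the test.

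At the active zone 3 of 6 members were called lower, Rims2, Bsn and Pclo. Bsn and Pclo encode bassoon and piccolo, the giant scaffold proteins that span the active zone. Bsn stood at 625, 599.6 and 566 CPM in WT and 474, 383 and 398 CPM in 5xFAD, a fall of 30.0% (log2 fold change -0.51 ± 0.12, adjusted p = 0.0107). Pclo stood at 443, 397 and 361 CPM and 310.0, 268 and 306 CPM (log2 fold change -0.44 ± 0.12, adjusted p = 0.0216). For both, WT 1 was the highest and 5xFAD 2 the lowest of the 6 libraries, and the groups did not overlap. Rims2, a RIM scaffold that links vesicles to calcium channels, stood at 111, 112 and 101 CPM and 69.9, 80.2 and 87.7 CPM (log2 fold change -0.45 ± 0.10, adjusted p = 0.00987). Its paralog Rims1 gave -0.04 ± 0.08 and did not pass. The priming factors Unc13a and Unc13b (Munc13-1 and Munc13-2) gave -0.21 ± 0.08 and -0.13 ± 0.10, the former at an unadjusted p of 0.0236 and an adjusted p of 0.102.

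Both neurexins, adhesion molecules that bind postsynaptic neuroligins, were called lower. Nrxn3 stood at 267, 328 and 248 CPM in WT and 184, 198 and 239 CPM in 5xFAD (log2 fold change -0.44 ± 0.12, adjusted p = 0.0245), with 5xFAD 3 just below WT 3. Nrxn2 gave -0.31 (adjusted p = 0.0299). Neither endocytosis member was called. Dnm1, dynamin 1, gave -0.22 ± 0.08 and Snap91, the clathrin adaptor AP180, gave -0.18 ± 0.08, both at an unadjusted p under 0.05 (0.0188 and 0.0473) and with adjusted p of 0.0879 and 0.161.

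These calls leaned on single libraries to different degrees. Without 5xFAD 2 of the cohort, 3 members were called lower, Syt1, Sv2a and Rims2 (3.19% of genes), and these 3 were also called lower on leaving out each of the other 5 libraries. Syt2, Vamp1 and Bsn lost their call only without 5xFAD 2, with adjusted p of 0.0545, 0.0521 and 0.057. Without WT 1 the count was 6 (3.34% of genes) and without WT 2 it was 8 (4.85%), and Cplx1 was not called in any of the 6 fits with a library left out. Rescaling each library to pan-neuronal RNA also moved the count. With the median ratio of the 15 pan-neuronal genes as scale, 7 members stayed lower (Syt1, Syt2, Sv2a, Sv2b, Vamp1, Rims2 and Bsn), where 3.53% of genes were, the member median was -0.13 and the median of all genes 0.08. With their summed counts as scale, of which Kif5a, Map1b and Map2 made up 27.7%, 18.5% and 15.5%, the median of all genes shifted to 0.28. In that fit Syt2 and Bsn were lower (2 of 32, 1.74% of genes) and the member median was 0.06. Syt5, Syn2, Slc17a7, Rab3a and Rims1 were higher (5 of 32, where 24.2% of genes were). So the lower calls of Syt2 and Bsn were made under both scalings to neuronal RNA.

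**Figure D2:**
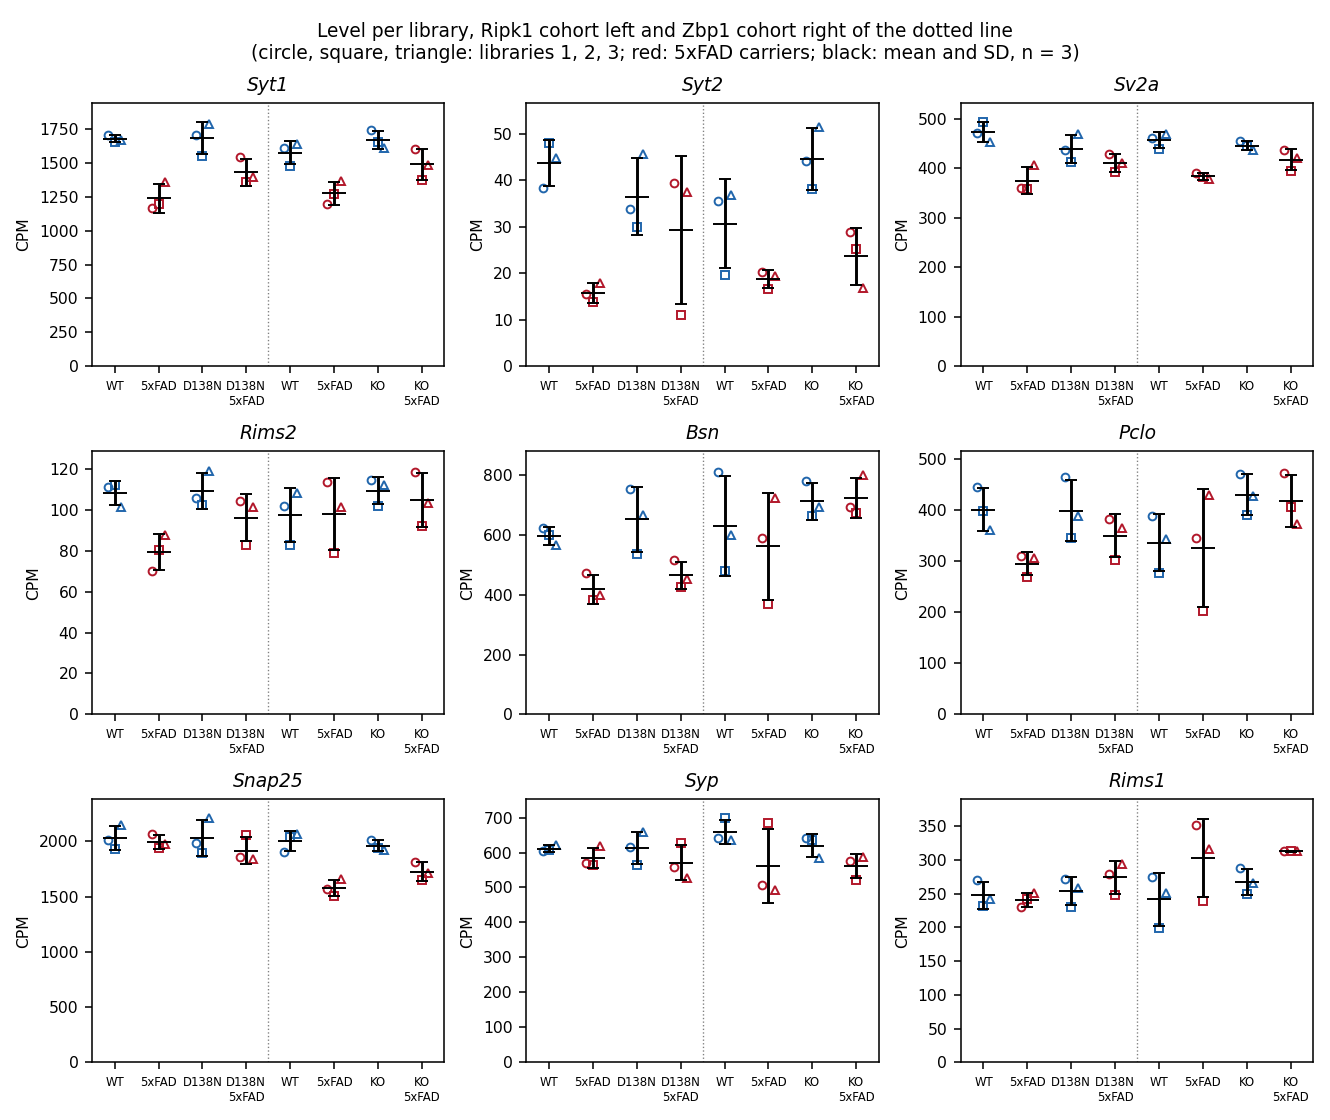
CPM of 9 members in each library of the 8 groups (points, with the mean and SD of 3 libraries; linear axis for each gene). Syt1, Syt2, Sv2a, Rims2, Bsn and Pclo are lower in all 5xFAD libraries than in all WT libraries of the Ripk1 cohort, Snap25 is so in the Zbp1 cohort, and Syp and Rims1 are not in the Ripk1 cohort.

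Between paralogs, the ratio of counts within a library does not depend on library scaling. Rims2 counts were 0.413 to 0.484 of Rims1 counts in WT and 0.303 to 0.349 in 5xFAD of the Ripk1 cohort. On the D138N background the ratio was 0.39 to 0.46 without and 0.334 to 0.373 with the transgenes. In the Zbp1 cohort it was 0.37 to 0.43 in WT and 0.32 to 0.33 in 5xFAD, and 0.397 to 0.421 in Zbp1 KO and 0.294 to 0.379 in Zbp1 KO 5xFAD. Thus in each of the 4 pairs of genotypes the 3 transgenic libraries lay below the 3 libraries without the transgenes, although Rims2 itself gave an estimate of 0.01 in the Zbp1 cohort and Rims1 one of 0.33. The ratio of Vamp1 to Vamp2 was 0.156 to 0.18 in WT and 0.131 to 0.147 in 5xFAD of the Ripk1 cohort, and the groups overlapped in the Zbp1 cohort (0.135 to 0.155 and 0.13 to 0.15). Cplx1 to Cplx2 was 0.229 to 0.287 in WT and 0.191 to 0.221 in 5xFAD of the Ripk1 cohort. The Zbp1 cohort gave 0.225 to 0.262 and 0.188 to 0.363, where the high value belongs to 5xFAD 2. Syt2 to Syt1 was 0.0225 to 0.029 and 0.0116 to 0.0134 for the Ripk1 cohort and 0.0133 to 0.0226 and 0.0132 to 0.0169 for the other, with overlap there. On the D138N background the ratios of Vamp1, Cplx1 and Syt2 to their paralogs overlapped with and without the transgenes. On the Zbp1 KO background they did not overlap. The 4 pairs given were among 8 whose ratios were computed, and the ratios were not tested. The others, Sv2b to Sv2a, Bsn to Pclo, Unc13a to Unc13b and Syn2 to Syn1, overlapped between WT and 5xFAD of both cohorts. On the D138N background Sv2b to Sv2a, Bsn to Pclo and Syn2 to Syn1 were lower with the transgenes, without overlap, and Unc13a to Unc13b overlapped. On the Zbp1 KO background Syn2 to Syn1 was higher with the transgenes, without overlap, and the rest of these others overlapped. Groups without overlap were thus common among the 8, but only Rims2 to Rims1 had them in all 4 pairs of genotypes.

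**Figure D3:**
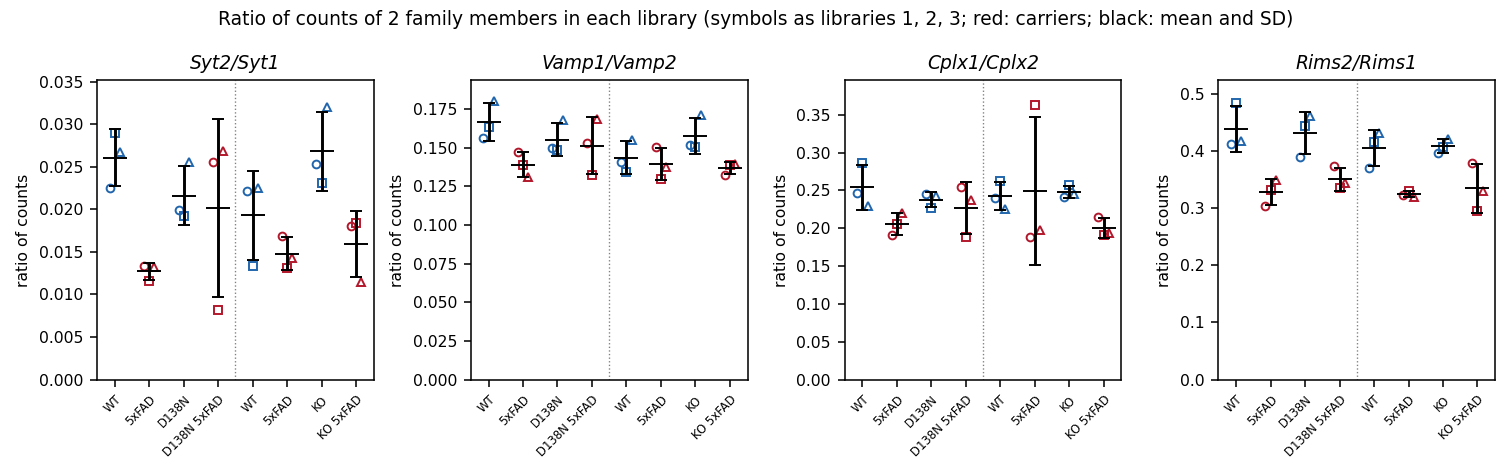
Ratio of counts of 2 paralogs within each library, for 4 pairs and the 8 groups (points, with mean and SD of 3 libraries; linear axis for each pair). Rims2/Rims1 is lower with than without the 5xFAD transgenes in all 4 genotype pairs, while Cplx1/Cplx2 has 1 high library, 5xFAD 2 of the Zbp1 cohort.

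Beyond the members, 60 other presynaptic genes were taken as a comparison list, also chosen with earlier results of these data known. In 5xFAD of the Ripk1 cohort 21 were lower, where 8.02% of genes were, and 3 were higher, where 8.11% were. The other 36 did not pass the test, and the median was -0.29. The lower call with the smallest adjusted p was Slc17a6 (log2 fold change -1.93 ± 0.35, adjusted p = 0.00293), a fall of 73.7%. Next came Cadps, a priming factor of dense-core vesicles (-0.46 ± 0.09), and Synj1, the lipid phosphatase that uncoats endocytic vesicles (-0.50 ± 0.10). They were followed by Dnajc5, the vesicle chaperone (-0.36 ± 0.07), and Erc1, an active zone scaffold (-0.53 ± 0.11). The remaining 3 of the 8 with the smallest adjusted p were Cacna1e, an R-type calcium channel (-0.43 ± 0.09), Stxbp5, tomosyn (-0.32 ± 0.07), and Rph3a, a Rab3 effector (-0.30 ± 0.07). Those higher included Snapin (0.30 ± 0.08) and Cltb, a clathrin light chain (0.27 ± 0.07). In the Zbp1 cohort 1 of the 60 was lower, where 0.127% of genes were, and 59 did not pass the test. The 1 was again Slc17a6 (log2 fold change -1.42 ± 0.35, adjusted p = 0.0368), at 22.5, 20.1 and 27.3 CPM in WT and 10.9, 7.42 and 7.88 CPM in 5xFAD. On the mutant backgrounds edgeR called 0 of the 60 in either direction. On D138N 0.257% of genes were called lower and 3.12% higher, and on Zbp1 KO 0.0423% and 1.18%. At an unadjusted p under 0.05, D138N 5xFAD against D138N gave 18 lower, where 5.75% of genes were, and 1 higher. Zbp1 KO 5xFAD against Zbp1 KO gave 10 lower, where 2.3% of genes were, and 1 higher.

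On the D138N background the 5xFAD effect can be read from other libraries than those above. Of the 32 members 1 was lower in D138N 5xFAD than in D138N, Bsn, and 0 were higher, where 0.257% of genes were called lower. Bsn stood at 754, 536 and 666 CPM in D138N and 516, 428 and 454 CPM in D138N 5xFAD (log2 fold change -0.48 ± 0.12, adjusted p = 0.0401), with no overlap. This call was lost when any of 4 of the 6 libraries was left out: D138N 1, D138N 3, D138N 5xFAD 2 or D138N 5xFAD 3. DESeq2 called 2 lower, Bsn and Sv2b (1.48% of genes), and at an unadjusted p under 0.05 edgeR gave 6 lower (5.75% of genes) and 0 higher. The estimate was negative for 30 of 32 members, with a median of -0.14. Glial markers moved beside them: the oligodendrocyte markers summed to 4481 to 5585 CPM in D138N and 7010 to 9170 CPM in D138N 5xFAD, with 7 of 8 called higher. The microglial markers summed to 402 to 432 CPM and 1205 to 1533 CPM, with 10 of 12 called higher. Their part in the members' values was not tested. Of the 13 genes called lower in 5xFAD on the WT background all 13 had negative estimates here, with a median of -0.22. Among them Syt1 gave -0.23 ± 0.09, Syt2 -0.31 ± 0.33, Rims2 -0.18 ± 0.10 and Pclo -0.19 ± 0.12. The interaction, which tests whether the 5xFAD effect differs between the backgrounds, called 0 members (0.0281% of genes called in either direction, and 0 members by DESeq2). At an unadjusted p under 0.05 it gave 2 members, where 4.0% of genes were higher, a share near that of the members. They were Syt2 (1.16 ± 0.47) and Sv2a (0.24 ± 0.10).

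D138N 5xFAD was also compared with 5xFAD directly, a comparison that shares its 5xFAD libraries with 5xFAD against WT. Thy1 stood at 1612 to 2251 CPM in D138N 5xFAD and 2295 to 2739.6 CPM in 5xFAD, without overlap. The microglial markers summed to 1205 to 1533 CPM and 1594 to 1706 CPM. The part of either in the members' values, here or in the interaction, was not tested. No member was called by edgeR or DESeq2 (0 of 32, where 0.365% of genes were called in either direction), and 4 were higher (6.51% of genes) and 0 lower at an unadjusted p under 0.05. These 4 were Syt1 at 0.21 ± 0.09, Syt2 at 0.90 ± 0.34, Rims2 at 0.28 ± 0.10 and Rims1 at 0.18 ± 0.08. Syt1 stood at 1543, 1355 and 1393 CPM in D138N 5xFAD, and 5xFAD 3 at 1358 CPM lay just above the lowest of these. Syt2 stood at 39.5, 11.0 and 37.4 CPM, with libraries 1 and 3 inside the WT range or near it and library 2 below every 5xFAD library. That library 2 also had 8.62 CPM of Slc17a6, against 27.5 and 21.3 CPM in libraries 1 and 3, and a neocortex and subiculum marker sum of 206 CPM against 316 and 305 CPM. Without it Syt2 was called higher both in D138N 5xFAD against 5xFAD (1.58% of genes) and in the interaction (0.0634%), and no other member was.

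Without the transgenes, none of the 32 members was called in D138N against WT by edgeR or by DESeq2 (0% of genes were called by edgeR), 0 passed an unadjusted p under 0.05 (2.4% of genes did), and the median was 0.00. Estimates ran from -0.30 (Sv2c) to 0.13 (Bsn). For Syt1 the D138N libraries held 1702, 1553 and 1785 CPM, for Syt2 33.9, 29.9 and 45.7 CPM and for Sv2a 437, 414 and 469 CPM. The WT and D138N groups overlapped for each of these 3. The remaining called members on this background stood as follows, in D138N and then D138N 5xFAD. Syt4 was at 149, 146 and 155 CPM and 134, 112 and 121 CPM. Sv2b was at 596, 463 and 559 CPM and 462, 366 and 386 CPM. For both genes the transgenic libraries lay below the others, for Sv2b by a very narrow gap. Vamp1 was at 123, 123 and 148 CPM and 119.9, 111 and 120.4 CPM. Cplx1 was at 430.1, 422 and 488 CPM and 408, 404 and 380.4 CPM. These groups also did not overlap, although for Vamp1 the gap was narrow. Transgenic libraries all lay below the D138N libraries for 8 of 32 members and for 1682 of 21376 genes tested. Nsf was at 1201, 1089.7 and 1273 CPM and 1092, 1002 and 931 CPM. Rims2 was at 106, 102 and 119 CPM and 104, 82.9 and 101 CPM. In both genes D138N 2 lay just below D138N 5xFAD 1, so the groups overlapped. Pclo was at 463, 344 and 388 CPM and 382, 302 and 364 CPM. Nrxn3 was at 275, 260.4 and 284 CPM and 222, 270.2 and 213 CPM. These groups overlapped by library 2 as well, of D138N for Pclo and of both genotypes for Nrxn3. For Sv2a D138N 5xFAD held 429.8, 392 and 411 CPM, which overlapped D138N and lay above 5xFAD 1 and 5xFAD 2.

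In the Zbp1 cohort 1 of the 32 members was lower in 5xFAD than in WT, Snap25, and 0 were higher, where 0.127% of genes were called lower. Snap25, the SNARE of the plasma membrane, stood at 1901, 2041 and 2067 CPM in WT and 1568, 1505 and 1657 CPM in 5xFAD, a fall of 21.3% (log2 fold change -0.35 ± 0.08, adjusted p = 0.0271). All 3 5xFAD libraries were below all WT libraries, but the call was lost without 5xFAD 1, WT 2 or WT 3. In the Ripk1 cohort the same gene held 2013, 1926 and 2146 CPM in WT and 2064, 1937 and 1978 CPM in 5xFAD. On the other backgrounds it held 1984, 1895 and 2211 CPM in D138N, 1856, 2056 and 1836 CPM in D138N 5xFAD, 2014, 1940.1 and 1924 CPM in Zbp1 KO and 1812, 1648 and 1716 CPM in Zbp1 KO 5xFAD. In the Zbp1 cohort its transgenic libraries lay below those without the transgenes on both backgrounds, and in the Ripk1 cohort the groups overlapped on both. DESeq2 called 4 members lower in 5xFAD of this cohort, Syt1, Sv2a, Snap25 and Nsf, where 0.639% of genes were.

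At an unadjusted p under 0.05 the Zbp1 cohort gave 11 members lower, where 4.19% of genes were, and 1 higher, where 7.81% were. The estimate was negative for 30 of 32, and the median was -0.21 against 0.00 over all genes. The 11 were spread over the roles: Syt1 -0.30, Syt2 -0.70 and Syt4 -0.24 of the synaptotagmins, and Sv2a -0.25 and Syn1 -0.20 of the vesicle proteins. Of the SNARE group they were Snap25, Vamp1 -0.28, Vamp2 -0.23 and Nsf -0.25, and both endocytosis members were among them, Snap91 -0.20 and Dnm1 -0.18. The 1 higher was Rims1 (0.33 ± 0.14, unadjusted p = 0.0327). Of the 32, 8 had 5xFAD libraries that all lay below all WT libraries, against 5.4% of genes tested. Of the 13 members called lower in the Ripk1 cohort 12 had negative estimates here, Rims2 at 0.01 being the exception, and 26 of 32 members were negative in both cohorts. All 15 pan-neuronal markers were negative as well, with a median of -0.18 and 0 called (edgeR; 5 lower at an unadjusted p under 0.05), and their sum was 8362 to 10066 CPM in WT and 8002 to 8962 CPM in 5xFAD. The microglial markers summed to 441 to 525 CPM and 1271 to 2256 CPM, with 11 of 12 called higher, and the astrocyte markers to 5901 to 7753 CPM and 8452 to 11608 CPM, with 3 of 8 called higher. Scaled to the summed pan-neuronal counts the member median was -0.10 and that of all genes 0.11, and scaled to their median ratio 0.02 and 0.23. Under either of these 0 members were lower and 1, Rims1, was higher.

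The members called in the Ripk1 cohort stood as follows in WT and 5xFAD of the Zbp1 cohort. Syt1 was at 1606, 1476 and 1635 CPM in WT and 1196, 1269 and 1363 CPM in 5xFAD. Sv2a was at 461, 439 and 470.3 CPM and 391, 382 and 378 CPM. Nsf was at 1205, 1219.9 and 1102 CPM and 958, 976 and 1034 CPM. For these 3 genes, and for Syt4 at 129, 141 and 134 CPM and 107, 121 and 114 CPM, the groups did not overlap. Syt2 was at 35.6, 19.6 and 36.9 CPM and 20.2, 16.7 and 19.5 CPM, with WT 2 inside the 5xFAD range. Bsn was at 809, 481 and 599 CPM and 591, 371 and 725 CPM. Pclo was at 388, 276 and 343 CPM and 345, 202 and 429.6 CPM. Both scaffold genes had their lowest value in 5xFAD 2 and a low value in WT 2. Rims2 was at 102, 82.8 and 108 CPM and 114, 78.7 and 101 CPM. Nrxn3 was at 251, 202 and 259 CPM and 213, 159 and 219.9 CPM. These too were lowest in 5xFAD 2, and their groups overlapped. Vamp1 was at 117, 134 and 142 CPM and 108, 117 and 99.3 CPM. Cplx1 was at 447, 457 and 457 CPM and 352, 489 and 346 CPM. Sv2b was at 554, 548 and 470.0 CPM and 356, 524 and 457 CPM. In these 3 genes the groups overlapped, for Cplx1 through its high value in 5xFAD 2.

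The libraries WT 2 and 5xFAD 2 of this cohort differed from their own genotypes along the members. Measured as the log2 difference from the mean of the other 2 libraries of the genotype, 14 members were below 0 in both, 15 above 0 in both and 3 had opposite signs (Pearson r = 0.752 over the 32 members, as a description, since all points come from the same libraries). All 6 active zone members were below 0 in both libraries, with Bsn at -0.53 in WT 2 and -0.82 in 5xFAD 2 and Pclo at -0.40 and -0.93. Sv2c was also low, at -0.51 and -2.04. Rab3a was high at 0.32 and 0.69, Syt5 at 0.25 and 0.62 and Syp at 0.13 and 0.45. The sum of 5 nuclear RNA markers was 6042 CPM in WT 2 and 4749 CPM in 5xFAD 2 and at least 9747 CPM in the other 10 libraries of the cohort. With 5xFAD 2 left out 9 members were lower (Syt5, Syp, Slc17a7, Rab3a, Snap25, Stx1a, Vamp1, Vamp2 and Cplx1), where 1.49% of genes were, and Rims1 was higher, where 3.47% were. With both left out 8 were lower (Syt1, Syt2, Syt5, Syp, Rab3a, Snap25, Stx1a and Cplx1), where 1.17% of genes were, and Rims1 was again higher, where 3.92% were. The count of members called in this cohort thus depended on these libraries, and with 2 libraries left per genotype each is assumed to vary like the other groups.

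**Figure D4:**
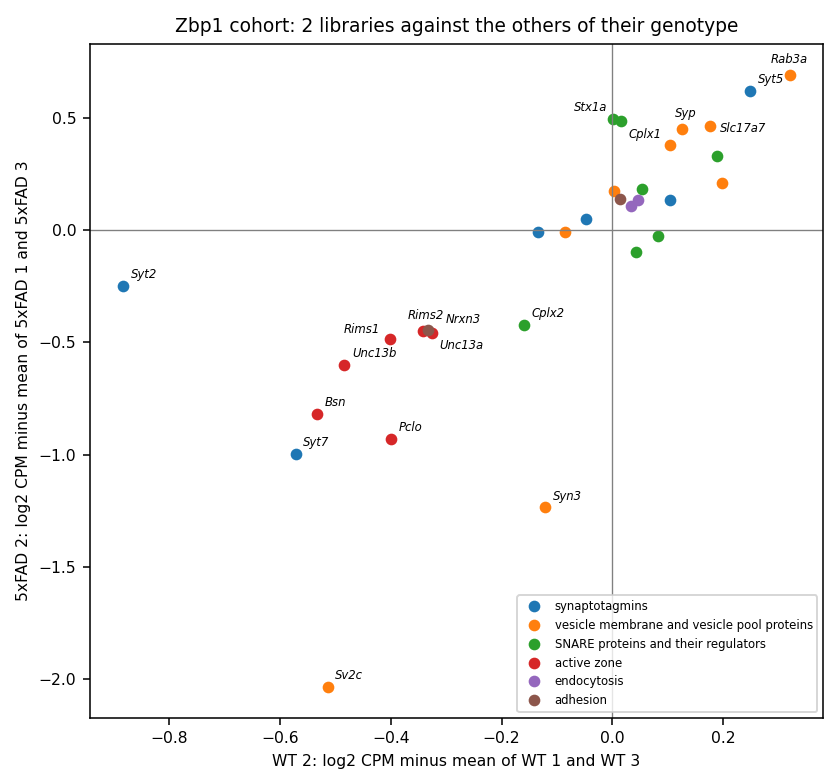
Log2 difference of library 2 from the mean of the other 2 libraries of its genotype in the Zbp1 cohort, for the 32 members coloured by role, with WT 2 on the x axis and 5xFAD 2 on the y axis. Active zone members lie in the lower left, with all 6 below 0 in both libraries, and Rab3a, Syt5 and Syp lie in the upper right.

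On the Zbp1 KO background 0 members were called between Zbp1 KO 5xFAD and Zbp1 KO, where 1.23% of genes were called in either direction. At an unadjusted p under 0.05 edgeR gave 7 lower (2.3% of genes) and 0 higher: Syt2 -0.91, Stx1a -0.38, Syt5 -0.37, Vamp1 -0.35, Cplx1 -0.28, Syn1 -0.20 and Snap25 -0.18. DESeq2 called Syt2 and Vamp1 lower (0.259% of genes), and a fit restricted to these 6 libraries called 6 lower (Syt2, Syt5, Rab3a, Stx1a, Vamp1 and Cplx1), where 1.31% of genes were. The estimate was negative for 29 of 32, with a median of -0.14. Beside them the microglial markers summed to 350 to 376 CPM in Zbp1 KO and 884 to 1046 CPM in Zbp1 KO 5xFAD, with 9 of 12 called higher, and the part of cell composition was not tested. Syt2 stood at 44.2, 38.2 and 51.4 CPM in Zbp1 KO and 28.9, 25.3 and 16.9 CPM in Zbp1 KO 5xFAD (log2 fold change -0.91 ± 0.23, adjusted p = 0.0878), with no overlap. Slc17a6 stood beside it at 21.9, 25.1 and 31.3 CPM and 24.3, 13.4 and 6.49 CPM, with Zbp1 KO 5xFAD 1 inside the range of Zbp1 KO. Bsn and Pclo gave 0.02 and -0.04, and Rims1 gave 0.22.

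No member passed the threshold for Zbp1 KO against its controls, with or without the transgenes. Against 5xFAD, Zbp1 KO 5xFAD gave 0 called members and 0% of genes called by edgeR, 0 members by DESeq2, and at an unadjusted p under 0.05 2 higher, Syt1 (0.22 ± 0.09) and Nrxn3 (0.37 ± 0.12), where 3.02% of genes were higher, and 0 lower. The member median was 0.11. Syt1 stood at 1603, 1375 and 1485 CPM in Zbp1 KO 5xFAD, above its 3 values in 5xFAD, which also served in 5xFAD against WT. Nrxn3 stood at 266, 240.2 and 257 CPM and also lay above its 5xFAD values. All libraries lay above those of 5xFAD for 5 of 32 members and 1362 of 21274 genes tested. The microglial markers summed to 884 to 1046 CPM in Zbp1 KO 5xFAD and 1271 to 2256 CPM in 5xFAD. At an unadjusted p under 0.05 edgeR gave 12 of 12 microglial and 6 of 8 astrocyte markers lower, with 1233 of all genes. The part of cell composition was not tested. Zbp1 KO against WT gave 0 called members by either tool and 0% of genes called by edgeR, with a median of 0.04. At an unadjusted p under 0.05 edgeR gave 1 member higher (1.77% of genes), Syt2 (0.55 ± 0.23). Syt2 was low in WT 2, a library that stood apart, at a log2 difference of -0.88 from the mean of the other 2 WT libraries. The interaction gave 0 members and 0% of genes called by edgeR, 0 members by DESeq2 and 0 at an unadjusted p under 0.05 (2.26% of genes), with a median of 0.07.

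Whether the 5xFAD effect differed between the cohorts was tested in 1 fit of all 24 libraries. It called 0 members, and 0% of 22565 genes, and DESeq2 called 0 members. At an unadjusted p under 0.05 it gave 3 lower and 1 higher in the Ripk1 cohort relative to the Zbp1 cohort, where 6.32% and 2.82% of genes were, shares near those of the members. The lower were Rims2 (-0.46 ± 0.18), Rims1 (-0.37 ± 0.16) and Nrxn2 (-0.26 ± 0.12), and the higher was Snap25 (0.31 ± 0.11, adjusted p = 0.419). The 13 members called in one cohort and 1 in the other were thus not accompanied by a member called in the test of the difference. Without 5xFAD 2 of the Zbp1 cohort it called 3 members, Rims1 lower (1.64% of genes) and Syt5 and Rab3a higher (0.887%).

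The authors' deposited table of 5xFAD over WT in the Ripk1 cohort lists 15 of the 32 members as lower at an adjusted p under 0.05, where 11.4% of its 18096 genes are. They are the 13 members called lower here with Syn3 and Dnm1 added, and Syt2 alone of them carries the call Down in that table. The authors' deposited table for the Zbp1 cohort lists 5 of the 32 as lower, Syt1, Sv2a, Snap25, Vamp1 and Nsf, where 0.934% of its 17994 genes are. The authors' deposited tables that compare 5xFAD with mutant 5xFAD list 0 members past that threshold in both cohorts.

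RNA that came down with the ZBP1 antibody was measured with 1 library per condition, so intervals cover counting error only and no test was made. The antibody libraries held 5.74 M counts in WT and 6.81 M in 5xFAD, and the inputs 8.91 M and 9.44 M. Members were thinly covered, with 8 to 124 counts in the antibody libraries and 15 to 174 in the inputs. Over the 31 members with at least 20 input counts the median ratio of antibody to input CPM was 0.926 in WT, against 0.862 over 15291 features, and 0.875 in 5xFAD, against 0.747 over 16361 features. The exact 95% interval of the ratio lay above 1 for 0 of these 31 in either genotype, where it did for 1.72% of features in WT and 1.01% in 5xFAD. It lay below 1 for 3 of 31 in WT, Syt11, Rab3a and Stx1a, and for 9.1% of features. In 5xFAD it lay below 1 for 5 of 31, Syt7, Sv2a, Unc13a, Unc13b and Nrxn2, and for 22.4% of features. Under 20 input counts, and so left out of these tallies, were Cplx1 in WT and Rab3a in 5xFAD. Cplx1 in WT had 20 antibody and 15 input counts, a ratio of 2.07 and an interval of 1.007 to 4.34, just above 1. Rab3a in 5xFAD had 19 input counts and an interval of 0.262 to 1.52.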

How the data were processed

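The authors deposited hippocampal counts for each cohort as a table of integer reads by Ensembl ID. The submitters' processing notes name HISAT2, edgeR 4.0.16 and DESeq2 1.42.1, with both mm10 (GRCm38) and mm39 (GRCm39) as builds. The sources used here do not give the build of each step, the counting options or the use of strand, so overlapping genes may share reads. The authors' deposited tables of comparisons hold, per the file headers, a mean normalised signal, a log2 fold change and a p-value per gene with an adjusted p-value. The ZBP1 libraries came as 1 deposited table of counts per symbol.

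Fits were made here in R 4.3.3 with DESeq2 1.42.0 and edgeR 4.0.16 (limma 3.58.1). Of 55487 gene IDs 55141 matched a symbol. The 12 libraries of a cohort were fitted together in edgeR (TMM, filterByExpr by genotype, quasi-likelihood test, Benjamini-Hochberg adjusted p under 0.05 over all genes). CPM use TMM-scaled library sizes, and SE is the log2 fold change divided by the square root of F. The fits were tested on simulated data. Alternatives were DESeq2, its size factors, no filter, a replicate block, scaling to pan-neuronal genes, a fit of the 6 libraries compared and leaving out each library. Shares of genes under DESeq2 are of those given an adjusted p. The labels do not say that libraries came from separate animals, so the spread behind p-values may be technical. No replicate pair agreed within counting noise: chi-square over its degrees of freedom was at least 7.8. A member called in any contrast is given in every library, except that beyond 12 called in a contrast those with the smallest adjusted p are. Of the other presynaptic genes the 8 called with the smallest adjusted p are named. A gene of that list is not reported here. The members and lists were chosen with earlier results of these data known. Promoter sequences are from RefSeq on GRCm38.p6, with no link to the coordinates of the counts.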

Additional observations from a re-analysis of the deposited data

How the results depend on the processing

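Of the members called and the other presynaptic genes named by the rule, 1 changed sign: Cplx1 in 5xFAD of the Ripk1 cohort was 0.014 with libraries scaled to summed pan-neuronal counts. In that fit 13 of the 32 members had negative estimates, against 28, and Syt5 and Rims1 went from below 0 to called higher. Under DESeq2, its size factors in edgeR and the replicate block these called genes kept their direction and their call. Among members not called by edgeR in that cohort, DESeq2 also called Syn3, Unc13a and Dnm1 lower and the replicate block Syn3. Replicate numbers were not used as pairs in the main fits. Between same-numbered 5xFAD and WT libraries the deviations correlated at 0.013, 0.138 and 0.057 (Ripk1 cohort) and 0.133, 0.402 and 0.092 (Zbp1 cohort). In each cohort 2 of 3 correlated best with their own number. Whether same-numbered libraries were handled together was not tested. With the replicate block 14 members were lower in 5xFAD of the Ripk1 cohort and 1 was in the other. The part of depth and of the number of libraries in these calls was not tested.

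Counts of genes called moved as follows. DESeq2 called 278 in D138N 5xFAD against 5xFAD (edgeR 78), 1211 in D138N 5xFAD against D138N (edgeR 721) and 75 in the Ripk1 interaction (edgeR 6). It called 1034 in 5xFAD of the Zbp1 cohort (edgeR 665), 151 in Zbp1 KO 5xFAD against 5xFAD (edgeR 0), 1 in Zbp1 KO against WT (edgeR 0), 495 in Zbp1 KO 5xFAD against Zbp1 KO (edgeR 261) and 26 between cohorts (edgeR 0). With no filter on low counts D138N 5xFAD against 5xFAD gave 387, D138N 5xFAD against D138N 1030, the Ripk1 interaction 145 and D138N against WT 2. That setting gave 1030 in 5xFAD of the Zbp1 cohort as well, 498 in Zbp1 KO 5xFAD against 5xFAD, 94 in Zbp1 KO against WT, 628 in Zbp1 KO 5xFAD against Zbp1 KO, 29 in the Zbp1 interaction and 188 between cohorts. The replicate block gave 0 in the Ripk1 interaction and 41 in Zbp1 KO 5xFAD against 5xFAD. Scaling to summed pan-neuronal counts gave 5536 in 5xFAD of the Ripk1 cohort (373 lower and 5163 higher, against 1715 and 1734). Scaling to their median ratio, chosen after seeing the data, gave 1448 in 5xFAD of the Zbp1 cohort (5 lower and 1443 higher, against 27 and 638) and 19 in Zbp1 KO 5xFAD against 5xFAD. A fit of the 6 libraries compared gave 339 in 5xFAD of the Zbp1 cohort, 2 in Zbp1 KO against WT and 877 in Zbp1 KO 5xFAD against Zbp1 KO. Without WT 2 and 5xFAD 2 of the Zbp1 cohort 5xFAD against WT gave 1121 and Zbp1 KO 5xFAD against 5xFAD gave 4.

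Counts of members moved too. In D138N 5xFAD against D138N 2 were lower by DESeq2, with no filter and with the replicate block, and 0 with the median ratio scaling or the fit of 6 libraries. With no filter Syt2 was the 1 member higher in D138N 5xFAD against 5xFAD and in the Ripk1 interaction. In 5xFAD of the Ripk1 cohort the summed pan-neuronal scale gave 2 lower and 5 higher and the median ratio 7 lower. In 5xFAD of the Zbp1 cohort DESeq2 gave 4 lower, both scalings 0 lower and 1 higher, the fit of 6 libraries 0, and leaving out WT 2 and 5xFAD 2 gave 8 lower and 1 higher. With no filter Syt2 replaced Snap25 as the 1 called there. In Zbp1 KO 5xFAD against Zbp1 KO 2 were lower by DESeq2, 1 (Syt2) with no filter and with the replicate block, and 6 in the fit of 6 libraries.

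The member median log2 fold change moved with the summed pan-neuronal scale to 0.063 in 5xFAD of the Ripk1 cohort, -0.063 in D138N 5xFAD against 5xFAD, -0.010 in D138N 5xFAD against D138N and -0.069 in the Ripk1 interaction. In the Zbp1 cohort it moved to -0.10 in 5xFAD, -0.0045 in Zbp1 KO 5xFAD against 5xFAD, -0.049 in Zbp1 KO against WT and -0.041 in Zbp1 KO 5xFAD against Zbp1 KO, and to 0.11 between cohorts. With the median ratio it moved to 0.024 in 5xFAD, 0.021 in Zbp1 KO 5xFAD against 5xFAD, -0.011 in Zbp1 KO 5xFAD against Zbp1 KO, -0.030 in the Zbp1 interaction and -0.22 between cohorts. These shifts follow from the scales, which move all genes of a library alike.

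Leaving out 1 library at a time, genes called ranged from 1757 to 3293 in 5xFAD of the Ripk1 cohort, 14 to 673 in D138N 5xFAD against 5xFAD, 0 to 1 in D138N against WT, 438 to 741 in D138N 5xFAD against D138N and 0 to 31 in the Ripk1 interaction. They ranged from 413 to 1103 in 5xFAD of the Zbp1 cohort, 0 to 82 in Zbp1 KO 5xFAD against 5xFAD, 123 to 168 in Zbp1 KO 5xFAD against Zbp1 KO and 0 to 593 between cohorts. Members called lower ranged from 3 to 12 in 5xFAD of the Ripk1 cohort, 0 to 2 in D138N 5xFAD against D138N, 0 to 9 in 5xFAD of the Zbp1 cohort and 0 to 1 between cohorts. Members called higher ranged from 0 to 1 in D138N 5xFAD against 5xFAD, in the Ripk1 interaction and in 5xFAD of the Zbp1 cohort, and from 0 to 2 between cohorts. The member median ranged from -0.24 to -0.16 in 5xFAD of both cohorts, -0.19 to -0.068 in D138N 5xFAD against D138N, 0.075 to 0.16 in Zbp1 KO 5xFAD against 5xFAD and 0.025 to 0.10 in the Zbp1 interaction. The cause of the other moves was not tested.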
